A study of Homo sapiens with 9 samples.

Results

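The nuclear genes for subunits of the mitochondrial oxidative phosphorylation system were followed in HCC4006, an established lung adenocarcinoma cell line with a mutant EGFR, across acquired gefitinib resistance with and without TGFβ receptor inhibition. The members were all rows of the expression table whose symbol begins with NDUFA, NDUFB, NDUFC, NDUFS, NDUFV, UQCR, COX4 to COX8 or ATP5, together with SDHA, SDHB, SDHC and SDHD; assembly factors named NDUFAF and symbols that end as pseudogenes do were left out. This gave 86 of 34687 rows, with 37 genes placed in complex I, 4 in complex II, 8 in complex III, 18 in complex IV and 15 in complex V. NDUFA4 and its paralog NDUFA4L2, which carry an older complex I name, were placed in complex IV. The other 4 members are taken by the prefix but are not structural subunits: ATP5S (now DMAC2L), ATP5SL (now DMAC2), COX4NB (now EMC8, of the endoplasmic reticulum membrane complex) and COX7A2L, which helps respiratory complexes join into supercomplexes. The prefixes also met 5 rows that the rule leaves out, namely NDUFAF1, NDUFAF2, NDUFAF3, ATP5EP2 and COX6BP1. The members are listed by their symbols in the table, many of them older ones.

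The 9 arrays fall into 3 groups of 3. Parental HCC4006 cells had no drug treatment in their labels, resistant cells were grown in rising gefitinib, an EGFR kinase inhibitor, for 6 months, and inhibitor cells had the same gefitinib exposure combined with SB431542, an inhibitor of the TGFβ type I receptor kinases. All 3 groups share the cell line, and the labels describe no SB431542-only group and no parental culture carried untreated for the same time. Whether either compound was still present when RNA was taken is not stated, nor whether the replicates were separate cultures, so the p-values rest on array-to-array spread that may be technical only. The inhibitor group's label calls its cells gefitinib resistant, but whether resistance preceded the inhibitor is not stated. A change from resistant to inhibitor cells thus means a difference between 2 groups, not a course in time.

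Oxidative phosphorylation moves electrons from NADH (complex I) and succinate (complex II) through ubiquinone, complex III and cytochrome c to oxygen (complex IV), and ATP synthase (complex V) uses the resulting proton gradient to make ATP. Most subunits are nuclear genes translated in the cytosol and imported, while a few central ones are encoded in mitochondrial DNA and are translated by the mitochondrial ribosome. In lung adenocarcinoma cells the pathway supplies ATP and allows aspartate synthesis beside an active glycolysis, and many of its nuclear genes carry promoter sites for NRF1, ETS-family factors such as GABP, YY1 and ERRα.

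Values are linear array intensities with no background subtracted. A background of 90.32 was taken from 377 olfactory receptor rows, as their 95th percentile, and 52.9% of the 30672 genes tested had a mean above it. Array medians ran from 91.06 to 91.31, and arrays of a group correlated at 0.9958 to 0.9977 across genes, apart from inhibitor replicate 2, at 0.9903 to 0.991. Of the lung epithelial and adenocarcinoma markers, 8 of 9 were above background (SFTPB was not). Their summed intensity was 16190 to 18060 on parental arrays, 7594.8 to 7882.3 on resistant arrays and 21052 to 26786 on inhibitor arrays. The sum weighs bright markers most, and single markers went both ways. Their median log2 change was -1.19 from parental to resistant cells (range -3.34 to 0.702). It was 0.778 from resistant to inhibitor cells (-0.215 to 2.18) and 0.57 between inhibitor and parental cells (-3.41 to 1.48). Among markers of other cell types, 3 of 8 leukocyte, 1 of 5 endothelial, 2 of 6 fibroblast and 1 of 5 muscle genes were above background, and PTPRC, CD3D and CD3E were not. The part of these marker shifts in the results that follow was not tested. In RNA of whole cultures, fewer cells of a type and less RNA per cell cannot be told apart.

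The promoters of 4 members are shown because these genes carried the main changes: UQCRC2 and NDUFAB1 had the deepest falls from parental to resistant cells, NDUFS8 the largest rise there, and NDUFA8 the deepest fall from resistant to inhibitor cells. Each window runs from 250 bases before to 50 bases after the gene's start in RefSeq, build GRCh38.p14, 5′ to 3′ on the gene's strand. Capitals mark matches to 5 motifs searched on both strands: GCGCATGC (the NRF1 core, which overlaps its own reverse complement here), CCGGAAG (ETS and GABP), AAGATGGCG (YY1), GGGCGG (SP family) and TCAAGGTCA (ERR).
UQCRC2, chr16:21953111-21953410, plus strand: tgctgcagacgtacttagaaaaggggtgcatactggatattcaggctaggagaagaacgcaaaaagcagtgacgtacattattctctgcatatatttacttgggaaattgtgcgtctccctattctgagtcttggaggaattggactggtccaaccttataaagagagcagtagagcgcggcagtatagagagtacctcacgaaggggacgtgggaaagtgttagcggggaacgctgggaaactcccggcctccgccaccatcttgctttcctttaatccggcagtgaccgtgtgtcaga
NDUFAB1, chr16:23596267-23596566, minus strand: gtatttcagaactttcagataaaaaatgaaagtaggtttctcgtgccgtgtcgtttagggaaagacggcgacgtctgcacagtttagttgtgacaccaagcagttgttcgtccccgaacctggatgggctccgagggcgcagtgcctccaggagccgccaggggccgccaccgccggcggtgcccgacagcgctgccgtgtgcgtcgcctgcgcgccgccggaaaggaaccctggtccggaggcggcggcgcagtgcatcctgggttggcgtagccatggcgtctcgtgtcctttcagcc
NDUFS8, chr11:68030431-68030730, plus strand: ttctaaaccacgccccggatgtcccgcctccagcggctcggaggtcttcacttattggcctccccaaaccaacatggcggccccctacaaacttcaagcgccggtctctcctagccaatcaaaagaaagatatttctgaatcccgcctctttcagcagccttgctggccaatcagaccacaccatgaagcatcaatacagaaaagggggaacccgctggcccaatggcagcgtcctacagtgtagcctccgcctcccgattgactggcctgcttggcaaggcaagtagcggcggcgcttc
NDUFA8, chr9:122159730-122160029, minus strand: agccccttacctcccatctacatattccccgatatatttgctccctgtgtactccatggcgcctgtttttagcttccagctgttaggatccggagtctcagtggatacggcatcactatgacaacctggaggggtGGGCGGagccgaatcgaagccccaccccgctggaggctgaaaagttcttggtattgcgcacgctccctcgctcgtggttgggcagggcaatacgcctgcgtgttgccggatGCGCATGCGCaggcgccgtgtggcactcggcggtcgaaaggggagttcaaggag
The NDUFA8 window holds the NRF1 core, read on both strands, and 1 GGGCGG, while none of the 5 letter strings occurs in the windows of UQCRC2, NDUFAB1 and NDUFS8. Promoter windows were found for 69 members. The NRF1 core occurred in 13 of them (18.8%, against 3.05% of all 35116 windows of 300 bases), CCGGAAG in 20 (29.0% against 10.3%), AAGATGGCG in 8 (11.6% against 1.75%), GGGCGG in 40 (58.0% against 45.0%) and TCAAGGTCA in 1 (1.45% against 0.353%). These matches are descriptions of letters, not of binding.

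Nearly all members were measurable. No row was matched to a subunit encoded in mitochondrial DNA, so those subunits are not covered. Of the 86 members, 80 were above background, and the 6 that were not are NDUFS6 and 5 complex IV genes known as tissue-restricted isoforms: COX4I2, COX6A2, COX7A1, COX7B2 and COX8C. At the bright end, 13 members had a group mean above 5549, the 99th percentile of all values: ATP5B and ATP5H of ATP synthase, UQCRH, UQCRHL and UQCRQ of complex III, NDUFA1 and NDUFAB1 of complex I, and COX4I1, COX5A, COX6B1, COX7A2, COX7C and NDUFA4 of complex IV. Whether such bright probes were near the scanner's ceiling is not given. UQCRHL is an intronless near copy of UQCRH, so probes for either may take up both.

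Between resistant and parental cells the system did not move as a block. With limma and Benjamini-Hochberg adjustment over all genes tested, 25 of 86 members were called at an adjusted p under 0.05, 11 higher and 14 lower. The share called among all genes was 20.5%, with 10.2% higher and 10.2% lower. Among the 80 members above background 24 were called, 13.8% of them higher and 16.2% lower, against 18.5% and 18.5% of the 16240 genes above background, so the members' shares were near or below the background. The median change of the members was 0.02 on the log2 scale, beside 0.01 for genes above background. With cyclic loess scaling the split was 8 higher and 16 lower. The count was 15 without resistant replicate 2, and the count of higher members was 5 without parental replicate 3, 6 without resistant replicate 2, 6 without resistant replicate 3 and 19 without inhibitor replicate 2. The count of lower members was 9 without resistant replicate 2.

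Between inhibitor and resistant cells, 26 members were called, 6 higher and 20 lower, where 17.5% of all genes were called, 8.68% higher and 8.81% lower. Among members above background 25% were lower and 7.5% higher, against 16.1% and 15.7% of genes above background. The median change was -0.07, and 55 of 86 members had a change below 0. The count was 11 without resistant replicate 2 (2 higher and 9 lower) and 15 without resistant replicate 3 (11 lower), and 3 were higher without resistant replicate 1; it was 23 without inhibitor replicate 2.

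Between inhibitor and parental cells, 20 members were called, 3 higher and 17 lower, where 14.9% of all genes were called, 7.13% higher and 7.79% lower. Among members above background 20% were lower and 3.75% higher, against 14.2% and 13.0% of genes above background. The median change was -0.05. Without inhibitor replicate 2 there were 22 calls, 6 higher and 16 lower, and without parental replicate 1 there were 11 lower. In all, 40 members were called in at least 1 comparison and 46 in none, and the matching share of all genes was not counted. The comparisons share groups, so their calls are not independent of each other.

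**Figure D1:**
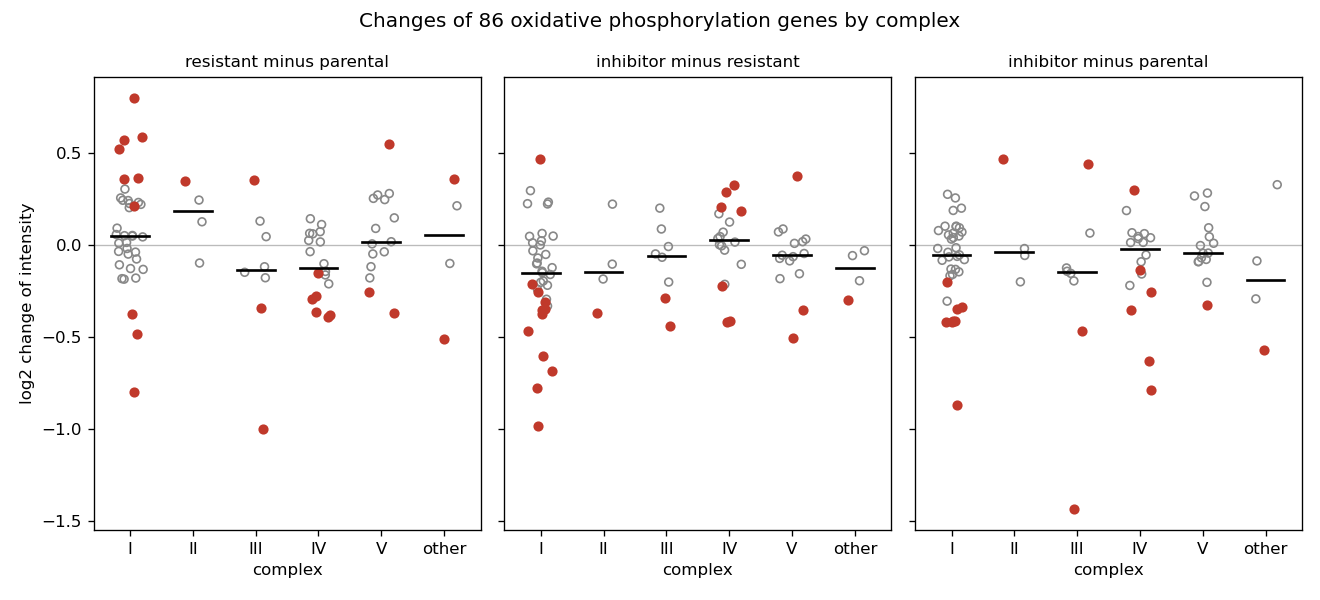
Log2 change of intensity (vertical axis) of each of the 86 members by complex (horizontal axis), in the 3 comparisons. Filled points passed the test at an adjusted p under 0.05, open points did not, and bars are medians. Complex I shows 11 of 37 genes lower from resistant to inhibitor cells, and complex IV shows 6 of 18 lower and none higher from parental to resistant cells. Among their genes above background these lower shares are 30.6% and 38.5%, against 16.1% and 18.5% of all genes above background.

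Complex I, the NADH dehydrogenase, has 37 of the 86 members. Of these 7 were higher and 3 lower in resistant than in parental cells, with a median of 0.05. Among its 36 genes above background 19.4% were higher, near the 18.5% of all genes above background, and 8.33% were lower, against 18.5%. In inhibitor cells 1 was higher and 11 were lower than in resistant cells, with a median of -0.15, and 30.6% of those above background were lower, against 16.1% of all genes above background. Between inhibitor and parental cells none was higher and 8 were lower. Among its 36 genes above background 22.2% were lower there, against 14.2% of all genes above background, and none was higher, against 13.0%. From parental to resistant cells the counts became 4 higher and 3 lower without parental replicate 3, 4 and 2 without resistant replicate 3, and 11 and 3 without inhibitor replicate 2. From resistant to inhibitor cells 6 were lower without resistant replicate 2 and 6 without resistant replicate 3, while 3 were higher and 9 lower without inhibitor replicate 2. Between inhibitor and parental cells 5 were lower without parental replicate 1, 5 without parental replicate 2, and 2 were higher and 7 lower without inhibitor replicate 2.

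NDUFS8, a core subunit that carries iron-sulfur clusters in the arm leading to ubiquinone, was measured at 1941, 2375 and 1907 on the parental arrays, at 3612, 3574 and 3618 on the resistant arrays, and at 2611, 1922 and 2668 on the inhibitor arrays. The resistant arrays lay above all others, and the inhibitor arrays overlapped the parental ones. The rise with resistance was 1.74-fold (log2 change 0.80, SE 0.12, limma adjusted p = 3.36e-05), with adjusted p from 4.36e-08 to 0.0149 over the alternatives. The inhibitor group was 1.52-fold lower than the resistant group (log2 change -0.60, SE 0.12, adjusted p = 0.000967), a call that was lost with a background subtracted (adjusted p = 0.0549) and in no other alternative. NDUFS7, the core subunit with the last cluster before ubiquinone, had intensities of 849.6, 816 and 763 in parental, 1167, 1213 and 1115 in resistant and 785, 586 and 827 in inhibitor cells. Its resistant arrays again lay above the rest, with a log2 rise of 0.53 (SE 0.13, adjusted p = 0.005, lost with a background subtracted at 0.0557) and a log2 change of -0.68 from resistant to inhibitor cells (SE 0.13, adjusted p = 0.000638, from 0.000345 to 0.0251 over the alternatives).

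NDUFA8, an accessory subunit on the intermembrane-space side whose promoter is printed with its NRF1 core, stood at 2101, 1919 and 1742 in parental, 2785, 2832 and 2924 in resistant and 1499, 1198 and 1660.0 in inhibitor cells. No groups overlapped, with the resistant arrays highest and the inhibitor arrays lowest. It rose by 0.57 on the log2 scale with resistance (SE 0.12, adjusted p = 0.000996, from 9.57e-06 to 0.0354) and was 1.98-fold lower in inhibitor than in resistant cells (log2 change -0.98, SE 0.12, adjusted p = 3.22e-06, from 2.57e-07 to 0.00525). Its log2 change of -0.41 between inhibitor and parental cells (adjusted p = 0.0187) was lost without parental replicate 1 (0.0946) or 2 (0.06), with 2 groups fitted alone (0.066) and with a background subtracted (0.131). NDUFS3, a core subunit of the same arm, read 1812, 1747 and 1663 in parental, 2174, 2239 and 2308 in resistant and 1515, 1028 and 1434 in inhibitor cells. Its groups did not overlap either, and inhibitor replicate 2 was its lowest array. The log2 change from resistant to inhibitor cells was -0.78 (SE 0.12, adjusted p = 0.000127, from 1.82e-05 to 0.0209), but its log2 rise of 0.36 with resistance (adjusted p = 0.0447) was lost in 10 of 17 alternatives, among them without each parental array (0.0668, 0.104 and 0.148 without replicates 1, 2 and 3) and each resistant array (0.0947, 0.116 and 0.14). Its log2 change of -0.41 between inhibitor and parental cells (adjusted p = 0.0293) was lost without parental replicate 1 (0.0979), 2 (0.0859) or 3 (0.0553) and without inhibitor replicate 2 (0.0764).

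NDUFV1, the subunit that binds NADH and the flavin, was measured at 849.6, 900.4 and 770.1 in parental, 1175, 1394 and 1222 in resistant and 964, 1114 and 937 in inhibitor cells. The inhibitor arrays lay between the other groups with no overlap. Its log2 rise with resistance was 0.59 (SE 0.12, adjusted p = 0.000851, from 3.29e-05 to 0.0112), and the change from resistant to inhibitor cells was not called. Also called higher with resistance were the accessory subunits NDUFA6 and NDUFV3, by log2 changes of 0.36 (adjusted p = 0.0216, not passing without resistant replicate 2 at 0.101 or 3 at 0.0667 and without parental replicate 2 at 0.0809 or 3 at 0.112) and 0.22 (adjusted p = 0.0114, lost without parental replicate 3 at 0.0638 or resistant replicate 3 at 0.0524).

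The complex I genes that fell with resistance were NDUFAB1, NDUFA13 and NDUFA12. NDUFAB1 is the mitochondrial acyl carrier protein, which sits in complex I and also serves fatty acid and lipoic acid synthesis and iron-sulfur cluster assembly. Its intensities were 7155, 6554 and 6742 in parental, 3846, 3685 and 4217 in resistant and 3654, 4117 and 3439.7 in inhibitor cells. Every parental array lay above all the others, and the resistant and inhibitor arrays overlapped. It was 1.74-fold lower in resistant than in parental cells (log2 change -0.80, SE 0.08, adjusted p = 2.49e-07, from 1.19e-09 to 0.0013) and 1.83-fold lower in inhibitor than in parental cells (log2 change -0.87, SE 0.08, adjusted p = 1.49e-07, from 1.25e-09 to 0.00167).

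NDUFA13, known as GRIM19, was lowest in resistant cells. It stood at 1229, 1241 and 1303 in parental, 908, 914 and 874 in resistant and 1249, 1209 and 1270.4 in inhibitor cells, so that the inhibitor arrays overlapped the parental arrays and the resistant arrays lay below both. The log2 change was -0.48 from parental to resistant cells (SE 0.10, adjusted p = 0.00138, from 1.63e-05 to 0.0106) and 0.47 from resistant to inhibitor cells (SE 0.10, adjusted p = 0.00246, from 3.16e-05 to 0.017). NDUFA12, an accessory subunit, was also called lower with resistance (log2 change -0.38, adjusted p = 0.0259), and the call was lost without parental replicate 1 (0.127) or 2 (0.052), without resistant replicate 1 (0.061), 2 (0.0885) or 3 (0.0816), and with a background subtracted (0.111).

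NDUFB10, an accessory subunit of the membrane arm, was one of the complex I genes called lower in inhibitor cells but not called between resistant and parental cells. It read 3180.0, 3195 and 2853 in parental, 2904, 2932 and 2917 in resistant and 2414, 1941 and 2584 in inhibitor cells, with all inhibitor arrays below the rest. The log2 change was -0.42 against parental cells (SE 0.10, adjusted p = 0.00647, lost with a background subtracted at 0.0723) and -0.35 against resistant cells (adjusted p = 0.0221), the latter lost without resistant replicate 1 (0.0696), 2 (0.0737) or 3 (0.0664), without inhibitor replicate 2 (0.0648) and with a background subtracted (0.122). NDUFA1, NDUFB5 and NDUFS1 had the same pattern of calls, with log2 changes of -0.34, -0.42 and -0.20 against parental and -0.21, -0.47 and -0.25 against resistant cells. The NDUFB5 calls were kept in all alternatives, the NDUFA1 call against resistant cells was lost in 10 of 17 (highest adjusted p 0.133, without resistant replicate 2) and the NDUFS1 call against parental cells in 7 (highest 0.182, without parental replicate 2). NDUFA2 and NDUFB11 were called lower against resistant cells and NDUFA10 against parental cells, and each of these calls was lost without resistant replicates 2 or 3, among others. The members of complex I that varied least between groups, NDUFB4 and NDUFB9, had group means of 109.5, 110.4 and 107 and of 2416, 2349 and 2303 in parental, resistant and inhibitor cells. NDUFB4 lies close to the background of 90.32, where changes are understated. Its log2 change from resistant to inhibitor cells was -0.05 and reached -0.21 over the alternatives. NDUFS1, with group means of 116, 120 and 101, is close to the background too.

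**Figure D2:**
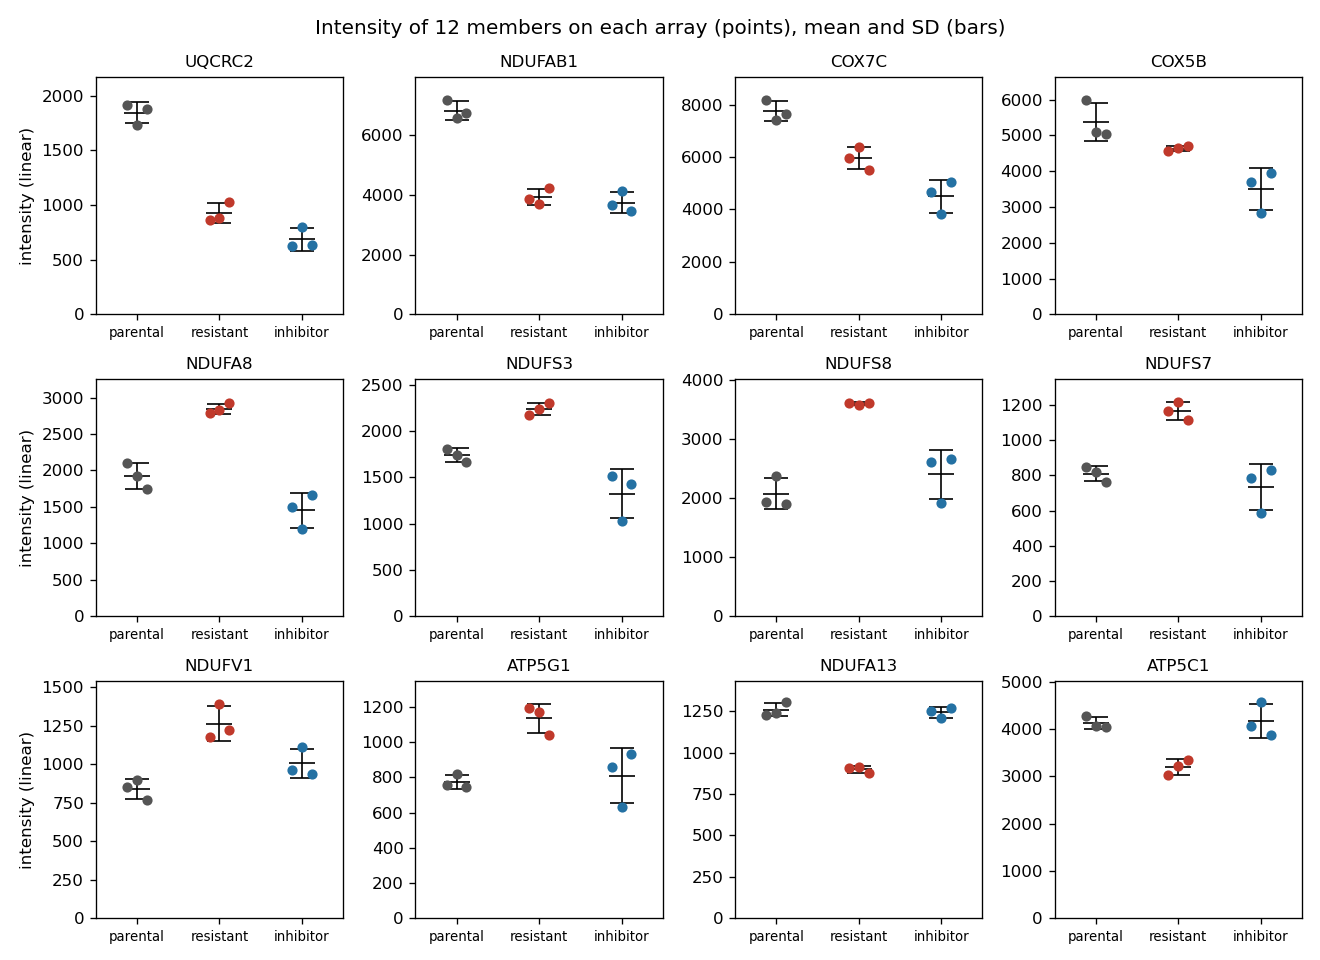
Linear intensity (vertical axis from 0) of 12 members on each array (points) in the 3 groups (horizontal axis), with the mean and SD of 3 arrays (bars). The resistant arrays of NDUFS8, NDUFA8, NDUFS3, NDUFS7, NDUFV1 and ATP5G1 lie above the other groups, those of NDUFA13 and ATP5C1 lie below them, and the parental arrays of UQCRC2, NDUFAB1, COX7C and COX5B lie above the others.

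Complex II, which oxidises succinate, has 4 genes, all measured. SDHA, the flavoprotein, was measured at 1019.7, 1079 and 1141 in parental, 1242, 1284 and 1314 in resistant and 1515, 1518 and 1454 in inhibitor cells. The groups did not overlap, and the inhibitor group was the highest. Its log2 change between inhibitor and parental cells was 0.47 (SE 0.10, adjusted p = 0.00259, from 0.000132 to 0.0144), and neither of the other changes of SDHA was called. SDHB, the iron-sulfur subunit, stood at 2048, 2128 and 1918 in parental, 2509.7, 2684 and 2566 in resistant and 1999, 1796 and 2246 in inhibitor cells, with the resistant arrays above the others, which overlapped. It was higher with resistance (log2 change 0.35, SE 0.10, adjusted p = 0.0144, lost without parental replicate 3 at 0.0726 and without resistant replicate 2 at 0.0716) and lower in inhibitor than in resistant cells (log2 change -0.37, SE 0.10, adjusted p = 0.0127, lost without resistant replicate 2 at 0.0674). The membrane anchors SDHC and SDHD were called in no comparison, with arrays that overlapped between all groups and group means of 723, 793 and 699 for SDHC and of 1568, 1468 and 1373 for SDHD.

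Complex III, the cytochrome bc1 complex, held the deepest fall among all members. UQCRC2, one of its large core proteins facing the matrix, was measured at 1918, 1734 and 1879 in parental, 862, 883 and 1031 in resistant and 621, 802 and 631 in inhibitor cells. No groups overlapped, and the inhibitor group was the lowest. It was 2.00-fold lower in resistant than in parental cells (log2 change -0.998, SE 0.12, adjusted p = 4.25e-06, from 8.89e-09 to 0.00314) and 2.71-fold lower in inhibitor than in parental cells (log2 change -1.44, SE 0.12, adjusted p = 5.91e-08, from 7.18e-11 to 0.00112). Its log2 change from resistant to inhibitor cells was -0.44 (limma adjusted p = 0.0164). That call was lost without resistant replicate 3 (0.106), inhibitor replicate 1 (0.0803) or inhibitor replicate 3 (0.0647) and with a background subtracted (0.0775).

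UQCRC1, its partner core protein, was called higher in resistant and in inhibitor cells than in parental cells, where UQCRC2 was called lower, and was not called from resistant to inhibitor cells (log2 change 0.09, adjusted p = 0.726). It read 465, 518 and 459 in parental, 543, 639 and 665 in resistant and 649, 721 and 593 in inhibitor cells, with the parental arrays below all the others. The log2 rise was 0.44 between inhibitor and parental cells (SE 0.12, adjusted p = 0.0149), lost without parental replicate 1 (0.0511) or 3 (0.0666) and with a background subtracted (0.0542). The rise of 0.35 with resistance (adjusted p = 0.0429) did not pass without resistant replicate 2 (0.149) or 3 (0.185), parental replicate 1 (0.113) or 3 (0.142) or inhibitor replicate 1 (0.0558), with cyclic loess (0.0802), with the replicate number as a block (0.0582) and with a background subtracted (0.0887).

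UQCRQ, a small subunit, was measured at 6754, 6120.0 and 6541 in parental, 5718, 5974 and 5482 in resistant and 4613, 4327 and 5139 in inhibitor cells, in that order with no overlap. Its log2 change between inhibitor and parental cells was -0.47 (SE 0.07, adjusted p = 0.000114, from 4.82e-05 to 0.0117), and that from resistant to inhibitor cells was -0.29 (adjusted p = 0.00773), lost without resistant replicate 2 (0.0505) and with a background subtracted (0.0589). UQCRB, which helps hold ubiquinone, was lower with resistance (log2 change -0.34, adjusted p = 0.0439), a call lost without any 1 of the 3 resistant arrays (0.139, 0.109 and 0.0956), parental replicate 1 (0.228) or 2 (0.0793) or inhibitor replicate 1 (0.0574), with the replicate number as a block (0.0734) and with a background subtracted (0.0914). Over the 8 genes of the complex, 1 (12.5%) was higher and 2 (25%) were lower with resistance, against 18.5% each way among all genes above background. These counts were none and 3 with cyclic loess, none and 1 with a background subtracted or the replicate number as a block, 1 and 3 without inhibitor replicate 2, and 1 and 1 without parental replicate 2 or resistant replicate 1. They were none and 1 without parental replicate 1, resistant replicate 2 or 3, or inhibitor replicate 1, and none and 2 without parental replicate 3. UQCRH, UQCRHL, UQCRFS1 (the Rieske iron-sulfur protein) and UQCR were called in no comparison.

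Complex IV, cytochrome c oxidase, had no gene called higher in resistant than in parental cells. Of its 18 genes 6 were lower there, with a median of -0.12, or 3 with a background subtracted and 7 with cyclic loess. Among its 13 genes above background 38.5% were lower and none was higher, against 18.5% each way among all genes above background. From resistant to inhibitor cells 4 were higher and 3 lower, and these counts were 1 and 3 without resistant replicate 1, none and 2 without resistant replicate 2, and 2 and 2 without resistant replicate 3. Between inhibitor and parental cells 1 was higher and 5 were lower, or 1 and 2 without parental replicate 1. Among the 13 genes above background 30.8% were higher and 23.1% lower from resistant to inhibitor cells, against 15.7% and 16.1% of all genes above background. Between inhibitor and parental cells these shares were 7.69% and 30.8%, against 13.0% and 14.2%.

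COX7C, a small membrane subunit, was lower in resistant than in parental cells and lowest in inhibitor cells. Its intensities were 8159, 7425 and 7648 in parental, 5980.0, 6378 and 5522 in resistant and 4665, 3821 and 5036 in inhibitor cells, without overlap. It was 1.73-fold lower in inhibitor than in parental cells (log2 change -0.79, SE 0.09, adjusted p = 1.74e-06, from 1.27e-07 to 0.00801). The log2 changes of -0.38 with resistance (adjusted p = 0.00294) and -0.41 from resistant to inhibitor cells (adjusted p = 0.00193) were lost with a background subtracted (0.0866 and 0.0759) and in no other alternative.

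COX5B, a zinc-binding subunit on the matrix side, was measured at 5980.0, 5097 and 5046 in parental, 4559, 4646 and 4694 in resistant and 3703, 2830.0 and 3964 in inhibitor cells. The inhibitor arrays lay below all the others, and inhibitor replicate 2 was the lowest. Its log2 change was -0.63 between inhibitor and parental cells (SE 0.10, adjusted p = 0.000183, from 5.61e-05 to 0.0377) and -0.42 between inhibitor and resistant cells (adjusted p = 0.00636, lost with a background subtracted at 0.131). COX4I1, the ubiquitous form of a subunit that binds adenine nucleotides, had inhibitor arrays at 5538, 5032 and 5695, below the resistant arrays at 6007, 6378 and 6536 and the parental arrays at 6754, 6399 and 6223. The log2 change was -0.25 against parental cells (adjusted p = 0.0116, lost without parental replicate 1 at 0.0602) and -0.22 against resistant cells (adjusted p = 0.0263, lost without resistant replicate 2 at 0.0892 or 3 at 0.109, without inhibitor replicate 2 at 0.082 and with a background subtracted at 0.0733). COX7B was lower in inhibitor than in parental cells (log2 change -0.35, adjusted p = 0.00876), which did not pass without inhibitor replicate 1 (0.0584), without parental replicate 1 (0.0662) or with a background subtracted (0.113).

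A second set of complex IV genes was lowest in resistant cells. COX6B1, which faces cytochrome c on the intermembrane-space side, stood at 7489, 6337 and 6946 in parental, 5117, 5489 and 5501 in resistant and 5830.0, 6306 and 6481 in inhibitor cells, with every resistant array below the rest. Its log2 change with resistance was -0.36 (SE 0.07, adjusted p = 0.00063, from 0.000123 to 0.0198). Its change of 0.21 from resistant to inhibitor cells (adjusted p = 0.0475) was lost in 9 alternatives, among them without resistant replicate 1 (0.192), 2 (0.0836) or 3 (0.0751), inhibitor replicate 2 (0.0711) or 3 (0.158) and parental replicate 3 (0.0663). COX6C, a small subunit, read 3542, 3612 and 3731 in parental, 3032, 2707 and 2584 in resistant and 2953, 3122 and 3287 in inhibitor cells. The parental arrays were the highest, and its log2 change with resistance was -0.39 (SE 0.08, adjusted p = 0.0019, from 0.000302 to 0.0172). The resistant and inhibitor arrays of COX6C overlapped, and its log2 change of 0.17 between them was not called (limma adjusted p = 0.207).

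COX6A1, the liver-type form of its subunit, read 2779, 2598 and 2530.0 in parental, 2305, 2053 and 2107 in resistant and 2858, 2617 and 2637 in inhibitor cells, with the resistant arrays below the others. Its log2 change was -0.29 with resistance (adjusted p = 0.0241), which did not pass without resistant replicate 2 (0.11) or 3 (0.0845) and without parental replicate 1 (0.0929) or 2 (0.0586). Its log2 change of 0.33 from resistant to inhibitor cells (adjusted p = 0.0137) was lost without resistant replicate 2 (0.0737) or 3 (0.056) or inhibitor replicate 1 (0.0701). NDUFA4 was measured at 6465, 7533 and 7553 in parental, 5566, 5743 and 6486 in resistant and 7298, 7713 and 6742 in inhibitor cells. The highest resistant array was just above the lowest parental array. Its log2 change of -0.28 with resistance (adjusted p = 0.0123) did not pass without resistant replicate 1 (0.0782) or 2 (0.0579), without parental replicate 2 (0.0697) or 3 (0.0761) and with a background subtracted (0.128), and its change of 0.29 from resistant to inhibitor cells (adjusted p = 0.0105) was lost without resistant replicate 1 (0.07) or 2 (0.0531) and with a background subtracted (0.124).

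The isoform pairs of complex IV gave mostly background signal for their tissue-restricted members. Group means were 86.8, 80.9 and 83.6 for COX4I2, 81.4, 85.7 and 84.1 for COX6A2, 81.2, 84.9 and 85.1 for COX7A1 and 81.3, 82.2 and 82.1 for COX7B2 in parental, resistant and inhibitor cells, and none of these was called. COX6B2, a testis isoform, read 89.1, 88.2 and 86.9 in parental, 92, 91.3 and 103 in resistant and 105, 109.7 and 110.3 in inhibitor cells, near the background of 90.32 throughout. Its log2 change between inhibitor and parental cells was 0.30 (SE 0.05, adjusted p = 0.000231, from 8.64e-05 to 0.0184), on a scale that understates changes so close to the background, and its change of 0.19 from resistant to inhibitor cells (adjusted p = 0.0123) was lost without resistant replicate 1 (0.0701) or 2 (0.075). COX8C, another testis isoform with a mean below the background over the 9 arrays, was called lower with resistance (log2 change -0.15, adjusted p = 0.0123, lost without parental replicate 1 at 0.0774 or resistant replicate 1 at 0.0645 and with a background subtracted at 0.152). It was also called lower in inhibitor than in parental cells (log2 change -0.14, adjusted p = 0.0352), which did not pass without inhibitor replicate 2 (0.133) or 3 (0.0784) and without parental replicate 1 (0.174) or 2 (0.0713), among 7 alternatives. The ubiquitous COX5A, COX7A2 and COX8A were called in no comparison.

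Of the 15 genes of complex V, the ATP synthase, 1 was higher and 2 were lower with resistance, 1 was higher and 2 were lower from resistant to inhibitor cells, and 1 was lower between inhibitor and parental cells. All 15 were above background. With resistance 6.67% were higher and 13.3% lower, against 18.5% each way among all genes above background. From resistant to inhibitor cells the shares were again 6.67% and 13.3%, against 15.7% and 16.1%. Between inhibitor and parental cells none was higher and 6.67% were lower, against 13.0% and 14.2%. ATP5C1, the gamma subunit that turns within the catalytic head, was measured at 4281, 4063 and 4046 in parental, 3020.3, 3229 and 3355 in resistant and 4063, 4563 and 3885 in inhibitor cells. The resistant arrays lay below the others, which overlapped. The log2 change was -0.37 with resistance (SE 0.08, adjusted p = 0.00198, from 0.000157 to 0.0181) and 0.38 from resistant to inhibitor cells (SE 0.08, adjusted p = 0.00196, from 0.00127 to 0.0186). The catalytic beta subunit ATP5B had group means of 8897, 8945 and 8443, and neither it nor the alpha subunit ATP5A1 was called. With resistance 4 genes of the complex were higher without inhibitor replicate 2 and 2 without parental replicate 1, and 1 was lower without resistant replicate 2; from resistant to inhibitor cells none was lower without resistant replicate 2 and 1 without resistant replicate 1, resistant replicate 3 or inhibitor replicate 2. Between inhibitor and parental cells 1 was also higher without parental replicate 1, inhibitor replicate 1 or inhibitor replicate 2.

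ATP5G1, ATP5G2 and ATP5G3 encode the same mature protein, subunit c of the rotor ring, behind different targeting sequences, and their transcripts gave different calls. ATP5G1 read 757, 818 and 747 in parental, 1192, 1172 and 1042 in resistant and 861, 633 and 935 in inhibitor cells, with the resistant arrays above the rest. It rose by 0.55 on the log2 scale with resistance (SE 0.13, adjusted p = 0.00501, lost with a background subtracted at 0.0689), and its change of -0.50 from resistant to inhibitor cells (adjusted p = 0.012) was lost without resistant replicate 1 (0.0666) or 2 (0.0584) and with a background subtracted (0.106). ATP5G2 read 2328, 2304 and 1994 in parental, 2466, 2924 and 2666 in resistant and 2253, 1828 and 2255 in inhibitor cells. Its resistant arrays were the highest, and its log2 change from resistant to inhibitor cells was -0.35 (adjusted p = 0.0283), lost without resistant replicate 2 (0.155) or 3 (0.0777) or inhibitor replicate 2 (0.0752), with the replicate number as a block (0.0547) and with a background subtracted (0.137).

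ATP5G3 read 193, 183 and 191 in parental, 165, 152 and 157 in resistant and 159, 148 and 146 in inhibitor cells, with the parental arrays above all others. Its log2 change was -0.33 between inhibitor and parental cells (SE 0.07, adjusted p = 0.00276, from 0.0013 to 0.0158) and -0.26 with resistance (adjusted p = 0.0127, lost without resistant replicate 2 at 0.0657). The difference in change between the 3 genes was not tested. Subunit c genes have processed pseudogenes, so their probes may take up other transcripts.

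Of the 4 members that are not subunits, ATP5S, known as factor B of ATP synthase, changed most. It stood at 395, 335 and 348 in parental, 235, 239 and 282 in resistant and 237, 248 and 241 in inhibitor cells, with every parental array above the rest. The log2 change was -0.51 with resistance (SE 0.10, adjusted p = 0.000807, from 8.44e-05 to 0.0127) and -0.57 between inhibitor and parental cells (SE 0.10, adjusted p = 0.000466, from 0.00012 to 0.0124). ATP5SL was called higher with resistance (log2 change 0.36, adjusted p = 0.0347), which did not pass without resistant replicate 2 (0.155) or 3 (0.143), without parental replicate 1 (0.124) or 3 (0.0829), with cyclic loess (0.0668) and with a background subtracted (0.058). COX7A2L was called in no comparison.

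**Figure D3:**
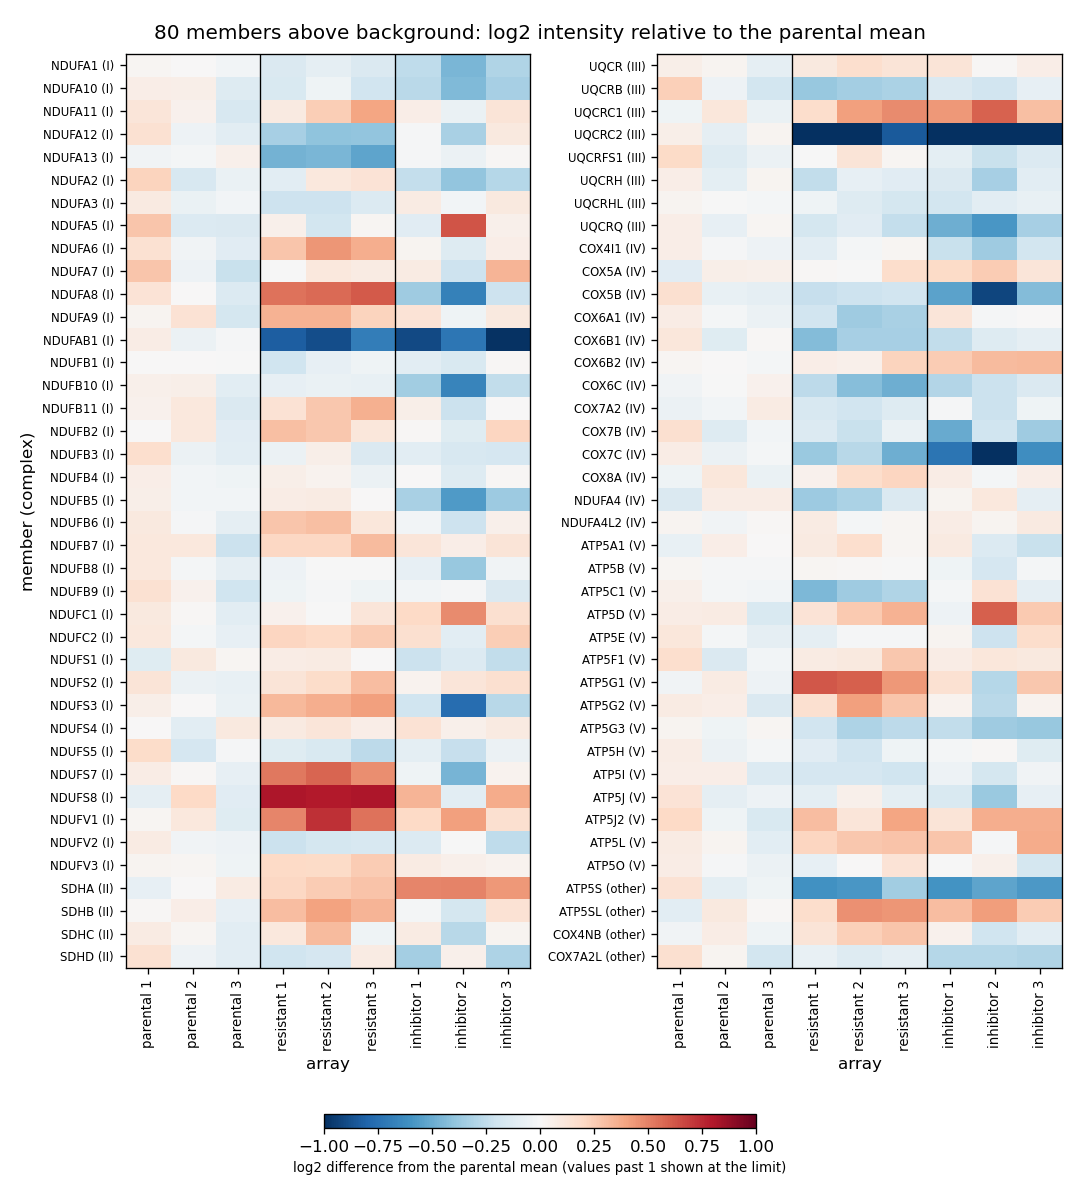
Log2 intensity relative to the parental mean (colour scale from -1 to 1, larger differences drawn at the limit) of the 80 members above background (rows, with their complex) on the 9 arrays (columns). UQCRC2 and NDUFAB1 are blue on all resistant and inhibitor arrays, and NDUFS8 is darkest red on the resistant arrays. Inhibitor replicate 2 is the lowest array of its group for 48 of the 80 members, and parental replicate 3 is the lowest of its group for 51.

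Grouped by direction, the members called higher with resistance and lower from resistant to inhibitor cells were ATP5G1, NDUFA6, NDUFA8, NDUFS3, NDUFS7, NDUFS8 and SDHB. The opposite pattern, lower with resistance and higher from resistant to inhibitor cells, was called for ATP5C1, COX6A1, COX6B1, NDUFA13 and NDUFA4. Lower in both comparisons were COX7C and UQCRC2. Both comparisons use the resistant arrays, so these calls are not independent of each other. The share of all genes with each of these patterns was not counted, so the lists cannot be set against it. Lower from resistant to inhibitor cells and also lower than parental cells, with no call between resistant and parental, were COX4I1, COX5B, NDUFA1, NDUFB10, NDUFB5, NDUFS1 and UQCRQ.

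On inhibitor replicate 2 the members had a median log2 level of -0.10 against the mean of the other inhibitor arrays. Shifts of similar size were seen in the parental group, at 0.105 for parental replicate 1 and -0.09 for parental replicate 3. On inhibitor replicate 2, 22 of 80 members were off by at least 0.25, against 1 to 11 on the other arrays. The matching share of all genes was not counted, so this is not shown to be a trait of the members. Over all genes tested, too, inhibitor replicate 2 stood apart, with correlations of 0.9903 to 0.991 within its group. Without it, the calls of COX5B, COX7C, NDUFA8, NDUFS7 and NDUFS8 named above between inhibitor and resistant cells were kept, as was that of NDUFS3, while those of ATP5G2, COX4I1, COX6B1, NDUFA1, NDUFB10, NDUFB11 and COX4NB were lost.

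Several members are neighbours in the genome, and the genes around them were counted. These stretches were chosen after the values were seen, and the gene order is that of RefSeq. UQCRC2 and NDUFAB1, the members with the deepest falls, lie on chromosome 16 with 13 genes above background between them. Of the 33 neighbours between them or among the 10 on each side, 17 (51.5%) were lower and 2 higher in resistant than in parental cells, and 20 (60.6%) were lower and 1 higher between inhibitor and parental cells, against 18.5% and 14.2% of genes above background lower in these comparisons. From resistant to inhibitor cells 12 of the 33 (36.4%, against 16.1% of genes above background) were lower, or 7 without resistant replicate 1. The median log2 change of the 33 neighbours with resistance was -0.23.

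UQCRB and COX6C lie on chromosome 8 with 18 genes above background between them. There 22 of 38 neighbours (57.9%) were lower and 3 (7.89%) higher with resistance, against 18.5% each way among all genes above background. Their median log2 change was -0.40. From resistant to inhibitor cells 16 of these 38 (42.1%) were higher and 6 (15.8%) lower, against 15.7% and 16.1% of all genes above background. Without resistant replicate 3 the counts were 12 and 3. In this comparison UQCRB and COX6C were themselves not called. NDUFV1 and NDUFS8, both higher with resistance, lie on chromosome 11 with 7 genes above background between them. There 3 of 27 neighbours (11.1%) were higher and 6 (22.2%) lower with resistance, or 5 and 6 without inhibitor replicate 2. These shares are below and near the 18.5% each way among all genes above background. From resistant to inhibitor cells 9 of these 27 (33.3%) were higher and 1 (3.7%) lower, against 15.7% and 16.1%. Without resistant replicate 1 or 2 the counts were 7 and none. NDUFS8 was called lower in that comparison, and NDUFV1 was not called. In all, 11 pairs of members had at most 30 genes above background between them. Over these pairs 3.57% to 57.9% of neighbours were lower and 3.12% to 29.7% higher with resistance. No cause of these stretches was tested.

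**Figure D4:**
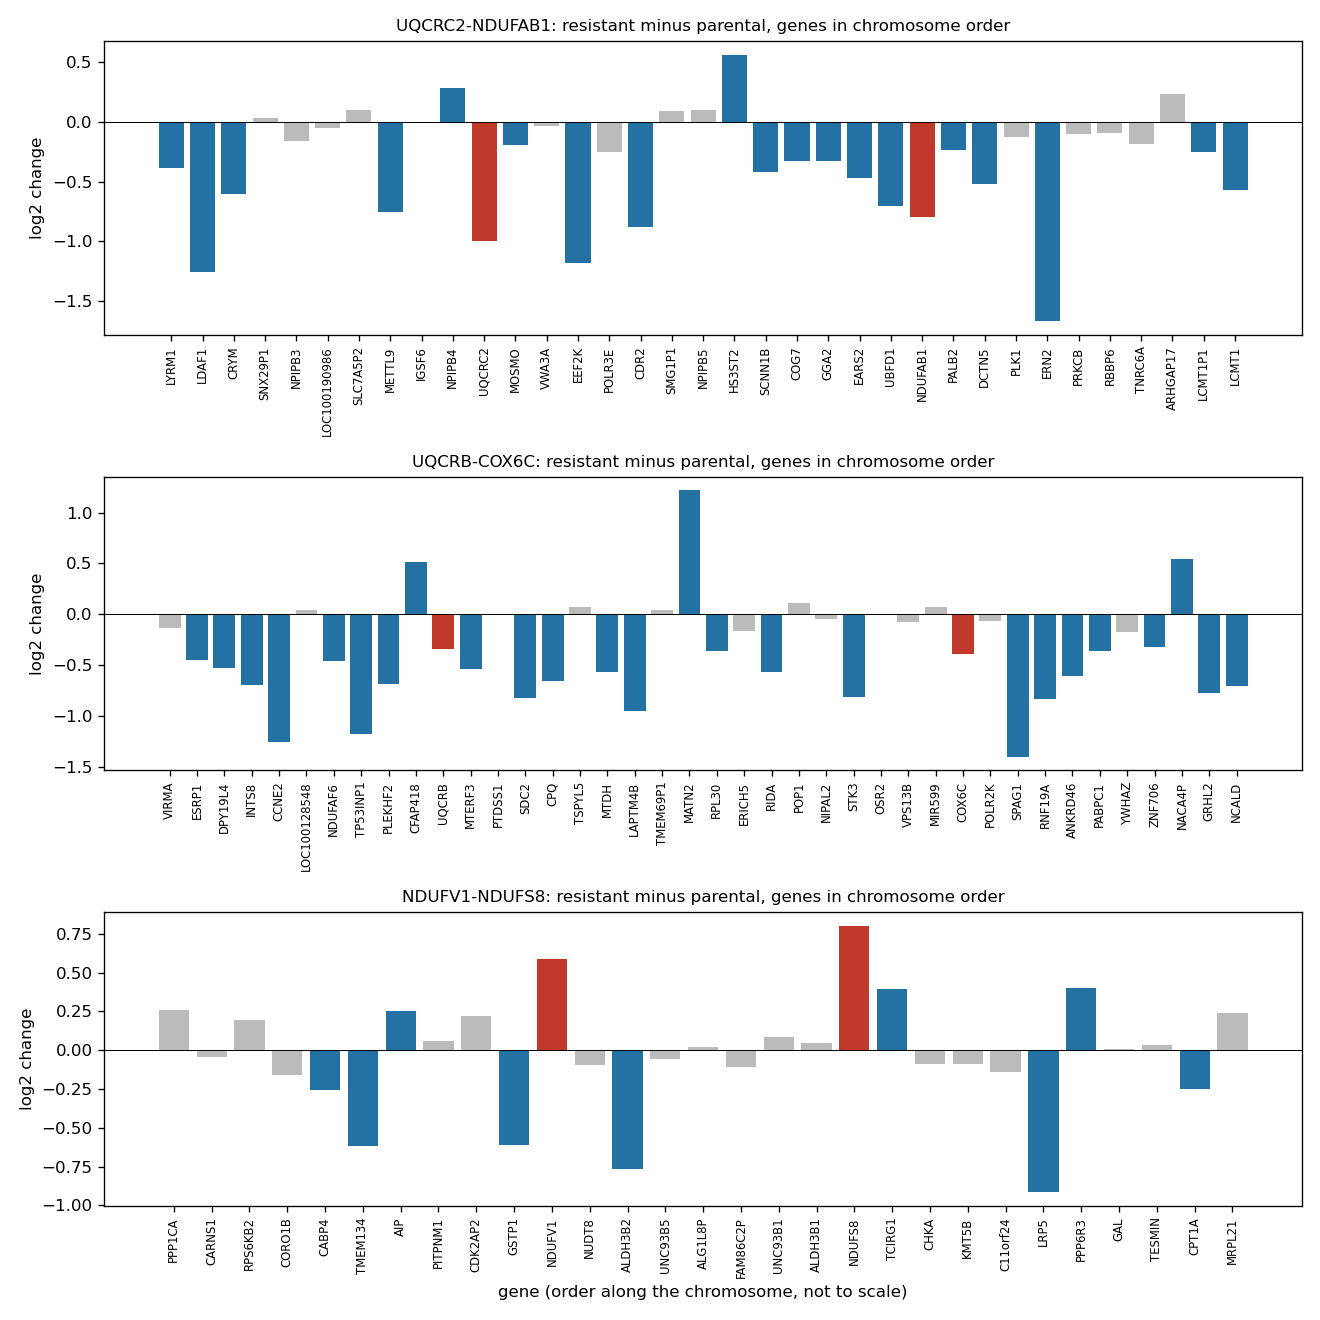
Log2 change from parental to resistant cells (vertical axis) of genes above background in chromosome order, not to scale (horizontal axis), around 3 pairs of members. Red bars are the members, blue bars are neighbours that passed the test and grey bars neighbours that did not. Called lower were 17 of 33 neighbours of UQCRC2 and NDUFAB1 (51.5%), 22 of 38 of UQCRB and COX6C (57.9%) and 6 of 27 of NDUFV1 and NDUFS8 (22.2%). Among all genes above background 18.5% were lower.

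The genes that make and serve the complexes were counted beside the subunits. Of 77 mitochondrial ribosomal protein genes, which build the machinery that translates the mitochondrially encoded subunits, 25 were higher and 2 lower with resistance (median log2 change 0.24), or 40 and 2 without inhibitor replicate 2, and none was higher and 23 were lower from resistant to inhibitor cells (median -0.17), or 15 lower without resistant replicate 3. As shares, 32.5% were higher and 2.6% lower with resistance, against 18.5% each way among all genes above background, and 29.9% were lower from resistant to inhibitor cells, against 16.1%. Between inhibitor and parental cells 8 were higher and 3 lower, or 13 and 4 without inhibitor replicate 2, 5 and 3 without parental replicate 3 and 5 and 2 without inhibitor replicate 1. With all arrays these were 10.4% and 3.9%, against 13.0% and 14.2% of all genes above background. MRPS2, of the small ribosomal subunit, read 244, 239 and 237 in parental, 469.8, 443 and 447 in resistant and 252, 283 and 252 in inhibitor cells, so the resistant arrays stood far above both other groups. Its log2 change was 0.92 with resistance (SE 0.09, adjusted p = 3.65e-07, from 2.11e-09 to 0.000102) and -0.79 from resistant to inhibitor cells (SE 0.09, adjusted p = 3.72e-06, from 9.38e-08 to 0.000305). MRPL52, MRPL41 and MRPS22 rose by 1.26, 0.82 and 0.68 on the log2 scale with resistance, with limma adjusted p of 9.79e-07, 6.36e-06 and 7.67e-05.

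Assembly factors of the complexes, which are needed to build them but are not in the finished enzymes, were measured for 44 genes. With resistance 17 were higher and 6 lower (median 0.20), and from resistant to inhibitor cells 4 were higher and 16 lower (median -0.18). With resistance 38.6% were thus higher and 13.6% lower, against 18.5% each way among all genes above background; from resistant to inhibitor cells 9.09% were higher and 36.4% lower, against 15.7% and 16.1%. The first pair of counts was 7 and 5 without parental replicate 3, 9 and 4 without resistant replicate 1 and 10 and 5 without resistant replicate 3; the second was 1 and 11 without resistant replicate 1, 2 and 10 without resistant replicate 2, 2 and 12 without resistant replicate 3, and 2 and 14 without inhibitor replicate 1 or 3. UQCC1, an assembly factor of complex III, read 335, 294 and 266 in parental, 649.9, 644 and 704 in resistant and 434, 360.3 and 432 in inhibitor cells, with no overlap. Its log2 rise with resistance was 1.16 (SE 0.12, adjusted p = 2.89e-07, from 8.52e-10 to 0.00113), while UQCRC2 of the same complex fell. NDUFAF2, of complex I, had the deepest change among these factors from resistant to inhibitor cells (log2 change -0.87, SE 0.11, adjusted p = 7.26e-06, from 7.48e-07 to 0.000388). SDHAF4 and NDUFAF7 were lower with resistance by log2 changes of -0.62 and -0.59 (adjusted p of 1.16e-05 and 0.000555).

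Among 25 genes for mitochondrial carriers and protein import, 9 (36%) were higher and 1 (4%) lower with resistance, or 9 and 2 without inhibitor replicate 2. The share with all arrays was 18.5% each way among all genes above background. From resistant to inhibitor cells 1 (4%) was higher and 8 (32%) were lower, or none and 6 without resistant replicate 1, none and 3 without resistant replicate 2, 1 and 5 without inhibitor replicate 1 and 2 and 8 without inhibitor replicate 2. In that comparison 15.7% of all genes above background were higher and 16.1% lower. TIMM8A, a chaperone of the intermembrane space, had a log2 change of -1.02 there (SE 0.13, adjusted p = 6.42e-06, from 1.34e-06 to 0.0055). Of 24 genes of the citric acid cycle and pyruvate dehydrogenase, which supply the NADH and succinate, 5 (20.8%) were higher and 5 (20.8%) lower with resistance, near the 18.5% of all genes above background in each direction. From resistant to inhibitor cells 1 (4.17%) was higher and 7 (29.2%) were lower, against 15.7% and 16.1% of all genes above background. Leaving out each array in turn gave 2 to 6 higher and 3 to 5 lower in the first comparison, and 1 to 2 and 5 to 7 in the second.

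Among 19 regulators of mitochondrial biogenesis, PPARGC1A (PGC-1α), the coactivator that raises transcription of respiratory genes, read 111, 109 and 109.9 in parental, 194, 158 and 162 in resistant and 99.9, 91.5 and 100.4 in inhibitor cells. The resistant arrays lay above all others, on levels close to the background of 90.32. The log2 change was 0.63 with resistance (SE 0.07, adjusted p = 1.47e-06, from 6e-08 to 0.000633) and -0.81 from resistant to inhibitor cells (SE 0.07, adjusted p = 7.36e-08, from 2.63e-08 to 0.000242). YY1, whose motif was searched in the promoters, was lower with resistance (log2 change -0.49, SE 0.11, adjusted p = 0.0022, from 6.8e-05 to 0.0319). In the whole list 4 (21.1%) were higher and 2 (10.5%) lower with resistance, against 18.5% each way among all genes above background. These counts were 4 and 4 with cyclic loess and 4 and 5 without inhibitor replicate 2, and leaving out each array in turn gave 2 to 4 higher and 1 to 5 lower.

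Among 10 genes of mitochondrial antioxidant defence and uncoupling, SOD2, the manganese superoxide dismutase of the matrix, changed most. It read 564, 575 and 464 in parental, 1321, 1612 and 1573 in resistant and 497, 502 and 489 in inhibitor cells, and the inhibitor arrays lay within the parental range. SOD2 had a log2 change of 1.49 with resistance (SE 0.12, adjusted p = 1.39e-08, from 5.2e-11 to 0.000308) and -1.59 from resistant to inhibitor cells (SE 0.12, adjusted p = 9.3e-09, from 2.27e-10 to 0.000332). UCP2, an uncoupling-protein family carrier of the inner membrane, went the other way, with log2 changes of -0.72 (SE 0.11, adjusted p = 5.92e-05, from 3.23e-08 to 0.00674) and 0.84 (SE 0.11, adjusted p = 1.41e-05, from 8.64e-07 to 0.00571). Of 8 control genes none was called with resistance, and 1 was higher from resistant to inhibitor cells. Between inhibitor and parental cells 3 (37.5%) were higher and 1 (12.5%) lower, against 13.0% and 14.2% of all genes above background. Without inhibitor replicate 2, 1 was higher and 1 lower with resistance, and leaving out each array gave 1 to 2 higher and 0 to 1 lower between inhibitor and parental cells.

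Some subunits stand in the table under names that the prefixes do not take. USMG5 (now ATP5MK), a small subunit of ATP synthase, had means of 585, 597 and 314 in parental, resistant and inhibitor cells, and its log2 change from resistant to inhibitor cells was -0.94 (SE 0.13, adjusted p = 3.28e-05, from 8.45e-06 to 0.0135). C14ORF2 (now ATP5MJ) had a log2 change of -0.42 in the same comparison (adjusted p = 0.0216), lost without resistant replicate 1 (0.0945) or 2 (0.0848) and with a background subtracted (0.0822). UCRC (now UQCR10), of complex III, was called higher with resistance (log2 change 0.39, adjusted p = 0.0385), which was lost in 8 of 17 alternatives, among them without each resistant array (0.131, 0.0883 and 0.0892) and parental replicates 2 (0.111) and 3 (0.176). Cytochrome c (CYCS), cytochrome c1 (CYC1) and the ATP synthase inhibitor ATPIF1 were called in no comparison with all arrays, and 1 of them was higher between inhibitor and parental cells without inhibitor replicate 2.

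**Figure D5:**
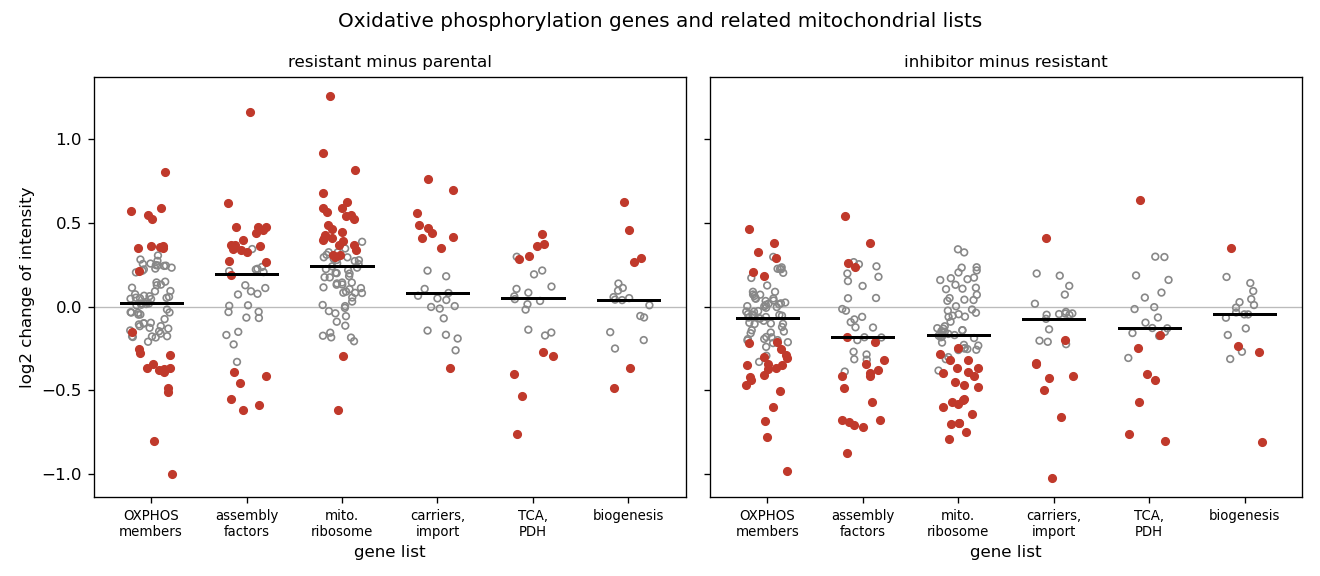
Log2 change of intensity (vertical axis) of each gene in the oxidative phosphorylation members and 5 related mitochondrial lists (horizontal axis), from parental to resistant and from resistant to inhibitor cells. Filled points passed the test, open points did not, and bars are medians; the mitochondrial ribosome list has a median of 0.24 in the first comparison and -0.17 in the second, and the members have medians of 0.02 and -0.07.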

How the data were processed

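Total RNA of HCC4006 cells was labelled with biotin and hybridised to Illumina arrays, per the labels' protocols. The authors deposited 1 table of linear intensity per gene symbol and array, and how probes were combined is not given in the sources used here. Sorted values of any array were within 0.0178 (log2) of the mean of the sorted values over the 9 arrays. The deposited intensities had thus already been normalised between arrays by rank, and the lowest value was 72.65. The number of value columns left unused was 0. Intensities were floored at 16, which changed no value, and log2-transformed.

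Rows were named through RefSeq: 17757 by current symbol, 3303 by older symbol and 2669 by gene number, with 7688 names kept as listed and 3270 rows with a UniGene name alone left out. Of the members, 65 were named by current and 20 by older symbol, and NDUFA4 was kept as listed. The fit used limma 3.58.1 in R 4.3.3 on all 9 arrays with 1 mean per group and a variance prior that follows intensity. P-values were Benjamini-Hochberg adjusted over 30672 genes, and a call is an adjusted p under 0.05. The fit was also run on simulated data with independent noise and no outlying array, and no result here rests on that run. Plots used matplotlib 3.10.9.

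The members and gene lists were chosen with earlier results of these data known. Members named with values had a called change of at least 0.5 on the log2 scale, were among the largest called rises and falls or the smallest ranges of their complex, have isoforms in the table, or are SDH genes; others were named so that each called member is mentioned. From the related lists, called genes with the largest changes were named. Alternatives were median scaling, cyclic loess, background subtraction, a filter on dim genes, no variance trend, the replicate number as a block, 2 groups fitted alone, every row tested by itself, and each array left out in turn; added after the values were seen were the members above background and those below the 99th percentile. The number of arrays limits the precision. Probes can also take up processed pseudogenes of these families.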

Additional observations from a re-analysis of the deposited data

How the results depend on the processing

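No called change of the 46 members chosen by rule turned its direction in these alternatives: of 56 calls among them 24 were kept in every alternative, and over all their comparisons 2189 alternative values stayed on the same side of the threshold, 28 gained a call and 114 lost one. With a background subtracted, 16 members were called between resistant and parental cells (7 higher, 9 lower), 13 between inhibitor and resistant cells (7 lower) and 13 between inhibitor and parental cells (11 lower); the cause was not tested. With the 6 arrays of resistant and parental cells fitted alone, 17 were higher. Leaving out 1 array at a time gave 15 to 36 calls between resistant and parental cells (5 to 19 higher, 9 to 17 lower), 11 to 25 between inhibitor and resistant cells (2 to 7 higher, 9 to 20 lower) and 14 to 22 between inhibitor and parental cells (2 to 6 higher, 11 to 16 lower). The members' median log2 change moved by less than the spread between arrays of a group, 0.0472, in every alternative. Replicate numbers did not pair the samples: same-numbered arrays of different groups had deviations that correlated from -0.23 to 0.0356. With the replicate number as a block, 22 members were called between resistant and parental cells (9 higher, 13 lower), 21 between inhibitor and resistant cells (5 higher, 16 lower) and 19 between inhibitor and parental cells. Changes of members near the background are understated, as no background was subtracted in the deposited values.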
